A study of Mus musculus with 32 samples.

Results

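The p38 MAP kinase, Creb1 and Klf4 axis was followed at the RNA level through 8 genes out of the 54446 in the count tables. The 8 are Klf4 and Creb1, which encode transcription factors, the p38 kinase genes Mapk14, Mapk11, Mapk12 and Mapk13, the p38 substrate kinase gene Mapkapk2, and the phosphatase gene Dusp1. They were taken by name, not by their values, as a signaling route that the study examined in macrophages. Bulk RNA sequencing covered 32 tumors of BNL-MEA, a mouse liver cancer cell line, that were grown in the livers of BALB/c mice. The p112 experiment set 4 vehicle tumors beside 3 given a low dose of regorafenib, 5 mg/kg/day, and 3 given a high dose, 20 mg/kg/day. The p103 experiment held 4 vehicle tumors, 3 under the low dose and 3 injected with 800 ug of DC-101, which is an antibody that blocks the mouse VEGF receptor VEGFR2. In the p101 experiment there were 3 tumors each for vehicle, low dose regorafenib, an anti-PD1 antibody, and regorafenib together with anti-PD1. The titles of the combination carry the prefix of the low dose, 5 mg/kg/day. Regorafenib is a small molecule that inhibits many kinases, including VEGF receptors and kinases of the RAF family. The labels do not give the length of treatment, and the study describes a different schedule for anti-PD1 than for regorafenib and DC-101. The labels call the 3 experiments batches, so each treatment was set against its own vehicle. All tumors came from the same implanted line, and each library held tumor cells mixed with host cells.

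Library totals ran from 16767130 to 27693689 counts, and every member was counted in every library, from 62 reads of Mapk13 to 5520 of Mapkapk2. High dose replicate 1 of p112 stood apart, with a TMM scaling factor of 0.678 against 0.867 to 1.10 in the other 31 libraries. The tissue was labelled as hepatocellular carcinoma. Alb, the hepatocyte albumin gene, ranged from 11 to 27940 CPM (counts-per-million, a gene's reads relative to the TMM-scaled library total), the keratin gene Krt18 from 0.989 to 399.5 CPM, and the fetal liver marker Afp reached no more than 3.54 CPM. Adgre1, which encodes the macrophage antigen F4/80, lay between 30.5 and 248 CPM, and Pecam1, the endothelial CD31 gene, between 17.3 and 155 CPM. In such mixed tissue, fewer cells of a type and less RNA per cell cannot be told apart.

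The p38 kinases are switched on by phosphorylation in response to stress and inflammatory cytokines. Active p38 phosphorylates downstream kinases, among them MK2 (Mapkapk2), which controls the stability of inflammatory messenger RNAs, and MSK1 and MSK2, which phosphorylate CREB. DUSP1 removes the phosphates from p38 and closes a feedback loop, and its own gene is a textbook CREB target. KLF4 is a zinc finger factor of endothelial cells, epithelia and macrophages, and in macrophages it takes part in the alternative (M2) program. RNA levels say nothing about the phosphorylation on which this pathway runs.

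The binding sequence of CREB, the cAMP response element, was looked up in the promoters because Klf4 and Dusp1 had the largest log2 differences among the members. Windows of 300 bases (250 before the RefSeq start site to 50 after it, GRCm38.p6) were given for all 8 genes. The complete element, TGACGTCA, was in the Dusp1 window and in none of the other members, against 1.79% of the 32851 windows of all genes. The core of the element, TGACG or its reverse complement CGTCA, was in the windows of Dusp1, Klf4, Mapk11 and Mapkapk2 and in 20.8% of all windows. A complete element holds both forms of the core, so 2 of the 3 cores of Dusp1 overlap in it. The 250 bases upstream of the start of Klf4 (chr4:55532476-55532725, minus strand) and of Dusp1 (chr17:26508473-26508722, minus strand) are printed 5′ to 3′ with these letters in capitals.
Klf4: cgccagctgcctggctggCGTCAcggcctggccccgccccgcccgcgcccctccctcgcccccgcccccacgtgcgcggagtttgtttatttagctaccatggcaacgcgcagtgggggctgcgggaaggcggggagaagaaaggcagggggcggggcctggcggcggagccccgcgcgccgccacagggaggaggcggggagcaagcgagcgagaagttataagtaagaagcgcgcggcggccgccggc
Dusp1: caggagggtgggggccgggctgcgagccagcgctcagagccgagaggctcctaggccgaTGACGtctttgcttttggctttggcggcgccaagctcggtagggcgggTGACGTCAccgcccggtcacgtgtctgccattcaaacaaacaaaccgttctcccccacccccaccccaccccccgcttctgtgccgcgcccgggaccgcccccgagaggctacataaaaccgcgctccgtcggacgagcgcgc
In the Klf4 window the core began 232 bases upstream of the start site. In the Dusp1 window the complete element began 143 bases upstream and the separate core 191 bases upstream. The longer Klf4 promoter sequence given by the study (2945 bases, ending at the same start site) held no complete element and 2 cores, beginning 269 and 232 bases before its end. These matches describe letters only, and binding was not measured in these files. The study predicted Creb1 sites on its sequence by likeness to the element, not by exact letters. By chromatin immunoprecipitation in M2 macrophages it reported less Creb1 binding under regorafenib, most clearly at a site further upstream than these cores.

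Levels of the 8 genes were compared with each other per length, as TMM-scaled CPM per kilobase of annotated exon. Mapkapk2 was the most abundant, with a median of 66.2 and a range of 52.1 to 80.8 over the 11 vehicle libraries. Mapk14, the p38α gene, followed at 23.6 (19.2 to 30.5). It exceeded the other p38 genes in each case: Mapk11 (p38β) had a median of 8.55, Mapk12 (p38γ) of 3.42 and Mapk13 (p38δ) of 2.03. Dusp1 lay at 9.30 with the widest range, 6.47 to 54.1, Klf4 at 7.69 (5.51 to 13.6) and Creb1 at 5.03 (4.18 to 6.66). The annotated exons of Creb1 add up to 13742 bases over all transcripts, which lowers its per-length value. The order Mapkapk2 over Mapk14 held in 11 of 11 vehicle libraries with a log2 difference of 1.48 ± 0.13 (SD), and Mapk12 over Mapk13 in 11 of 11 (0.91 ± 0.49). Dusp1 and Mapk11 (0.49 ± 0.95) and Mapk11 and Klf4 (0.08 ± 0.34) were neighbors whose mean difference was smaller than its SD, each in the stated order in 7 of 11 libraries. Mapk14 and Dusp1 also differed by less than the spread (0.98 ± 0.99).

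**Figure D1:**
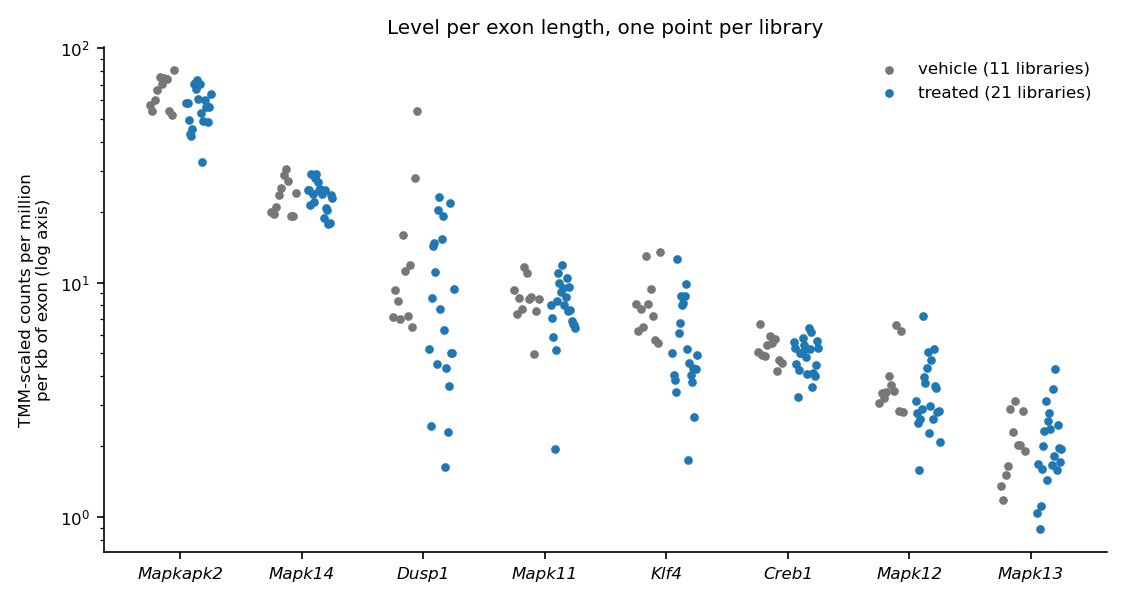
TMM-scaled CPM per kilobase of exon (log axis) for the 8 genes, ordered by their mean in vehicle, with a point for each of 11 vehicle (gray) and 21 treated (blue) libraries. Mapkapk2 lay between 32.7 and 80.8 in all 32 libraries, Dusp1 spread from 1.63 to 54.1, and Mapk13 was lowest at 0.884 to 4.27.

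Only low dose regorafenib was given in each of the 3 experiments. A joint fit of 9 low dose and 11 vehicle tumors, with the experiment as a term, asked which genes changed in common. None of the 8 members passed an adjusted p of 0.05 (edgeR quasi-likelihood test, 2-sided, Benjamini-Hochberg over 15562 genes), while 1.77% of all genes did. At an unadjusted p under 0.05, 1 member, Klf4, was counted, beside 16% of all genes. DESeq2 called 1 member, again Klf4, and 5.73% of all genes, and limma voom called 0 members and 1.96% of all genes. The median log2 change was −0.11 over the members and 0.03 over all genes.

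Klf4 (ENSMUSG00000003032.8, GRCm38 chromosome 4, 55527143 to 55532466, minus strand) was lower than the vehicle mean of its own experiment in 9 of 9 low dose tumors. In p112 its log2 CPM was 4.63, 4.25, 4.56 and 4.30 in vehicle and 3.94, 3.63 and 3.56 at low dose, so the groups did not overlap. In p103 the values were 5.32, 4.64, 4.84 and 4.47 in vehicle and 4.36, 4.75 and 4.62 at low dose, and these overlapped. In p101 vehicle tumors had 4.12, 4.08 and 5.37 and low dose tumors 4.0, 2.44 and 3.79, which lay below all vehicle tumors. The fitted log2 change over 3 experiments was −0.68 (SE 0.21, 95% confidence interval −1.12 to −0.24), 0.624 of the vehicle level. Its adjusted p was 0.0994 with edgeR and 0.0312 with DESeq2. The change by experiment was −0.73 in p112, −0.27 in p103 (−0.07 without vehicle replicate 1) and −1.10 in p101, and the test of a difference between experiments gave an adjusted p of 0.791. Leaving out single libraries gave changes between −0.74 and −0.51 with edgeR, with adjusted p values of 0.0825 to 0.17.

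Endothelial markers were also lower in the low dose tumors. Their median log2 change was −1.03 in p112, −1.49 in p103 and −1.04 in p101. It was largest in p103, where Klf4 changed least. Of 12 endothelial markers, 8 fell and none rose in the fit over 3 experiments, with a median log2 change of −1.20, and Pecam1 fell by 1.17. Their summed level was 351 to 603 CPM in vehicle and 280 to 362 at low dose in p112, 430 to 753 and 286 to 324 in p103, and 306 to 370 and 120 to 299 in p101. No endothelial marker was at 0 in any library. With the endothelial marker mean as a covariate, the Klf4 change over 3 experiments was −0.82 with an adjusted p of 0.939, and in that fit 0 of 15562 genes were called. Of 12 macrophage markers, 2 rose (Fcgr1 and Cd14) and 0 fell, while none of the 12 hepatocyte markers passed, all of them above 0 (median 1.46). No erythrocyte marker passed either, but all 6 tested were below 0 (median −2.22), among them the globin gene Hbb-bs at −2.51 (adjusted p 0.0553). All 10 T cell markers were above 0 (median 0.66) and 0 passed. Of 10 fibroblast markers 7 were below 0 (median −0.235) and none passed. Fits with the macrophage or hepatocyte marker mean as a covariate were also run. Over 12 alternative fits, which include all covariates, the Klf4 change ran from −0.91 to −0.50. The part of erythrocytes, fibroblasts and T cells in the Klf4 values was not tested.

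Dusp1 (ENSMUSG00000024190.6, chromosome 17, 26505590 to 26562128, minus strand) had the largest SD of the members within 8 of 10 groups, the exceptions being p112 vehicle and p112 high dose, and the sign of its low dose difference varied by experiment. Its log2 CPM in p112 was 4.57, 4.95, 4.8 and 4.54 in vehicle and 4.12, 3.03 and 4.84 at low dose. In p103 it was 5.72, 5.22, 4.58 and 5.30 in vehicle and 3.91, 6.08 and 6.27 at low dose. Both sets overlapped. In p101 the vehicle tumors had 4.43, 6.54 and 7.49 and the low dose tumors 4.38, 2.46 and 3.85, without overlap, although vehicle replicate 1 and low dose replicate 1 differed by only a few hundredths. The log2 change was −0.55 (SE 0.35) in p112, 0.47 (SE 0.53) in p103 and −2.85 (SE 0.93) in p101, and −0.81 over the 3 experiments (95% confidence interval −1.85 to 0.24, edgeR adjusted p 0.455). Without the p101 experiment the joint change was −0.03, and over 12 alternative fits, which include this one, it ran from −1.58 to −0.03. Single libraries moved the values within experiments. In p112 the change was −0.17 without low dose replicate 2 and −1.03 without low dose replicate 3, and in p103 it was 0.11 without low dose replicate 3 and 0.92 without low dose replicate 1.

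The difference between experiments in the low dose change was tested for all genes in the same fit. No member passed (edgeR, 0% of 15562 genes), and none was called by DESeq2 (0.643% of genes) or voom (0%). At an unadjusted p under 0.05 there were 2 members, Dusp1 (adjusted p 0.424) and Creb1 (adjusted p 0.503), beside 9.52% of all genes.

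Creb1 (ENSMUSG00000025958.14, chromosome 1, 64532645 to 64604548, plus strand), the gene of the cAMP response element binding protein, had a narrow range. Over all 32 libraries its log2 CPM went from 5.48 to 6.52. At low dose it was 6.27, 6.18 and 5.95 in p112 against 6.11, 6.52, 6.08 and 6.06 in vehicle, and 6.10, 6.32 and 6.21 in p103 against 6.21, 6.35, 6.25 and 6.30. In p101 all 3 low dose tumors (6.46, 6.17 and 6.41) were above all vehicle tumors (5.85, 6.01 and 5.96). The joint log2 change was 0.08 (95% confidence interval −0.10 to 0.26), with 5 of 9 low dose tumors above their vehicle mean, and it had the opposite sign without p101 (−0.07).

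Mapkapk2 (ENSMUSG00000016528.10, chromosome 1, 131053700 to 131097826, minus strand) was below the vehicle mean of its experiment in 9 of 9 low dose tumors. The low dose log2 CPM was 7.47, 7.48 and 7.23 in p112, 7.74, 7.76 and 7.67 in p103, and 7.33, 6.64 and 7.22 in p101. Vehicle tumors had 7.44, 7.36, 7.52 and 7.65 in p112, 7.85, 7.75, 7.83 and 7.81 in p103, and 7.36, 7.31 and 7.94 in p101. The groups overlapped in each experiment. The joint change was −0.21 (95% confidence interval −0.42 to 0.01, adjusted p 0.335 with edgeR), and −0.13 without vehicle replicate 3 of p101.

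The p38 genes themselves had joint low dose changes near 0. Mapk14 (ENSMUSG00000053436.15, chromosome 17, 28691329 to 28748406, plus strand) had a change of 0.09 (95% confidence interval −0.06 to 0.25), from 6.67 ± 0.24 (SD, n = 11) to 6.75 ± 0.19 (n = 9) log2 CPM. Mapk11 (ENSMUSG00000053137.7, chromosome 15, 89142486 to 89149628, minus strand) had 0.03 (−0.23 to 0.28), Mapk12 (ENSMUSG00000022610.10, chromosome 15, 89130584 to 89140703, minus strand) by −0.08 (−0.47 to 0.30) and Mapk13 (ENSMUSG00000004864.13, chromosome 17, 28769297 to 28780233, plus strand) by −0.13 (−0.51 to 0.25). Mapk11 and Mapk12 are neighbors on chromosome 15, as are Mapk14 and Mapk13 on chromosome 17. All 4 had adjusted p values of 0.578 to 0.946 in this fit. Over the 8 comparisons with vehicle, Mapk14 changes stayed between −0.17 and 0.25 and Mapk13 changes between −0.26 and 0.30. The signs of Mapk11 and Mapk12 in the joint fit changed when single libraries were left out.

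**Figure D2:**
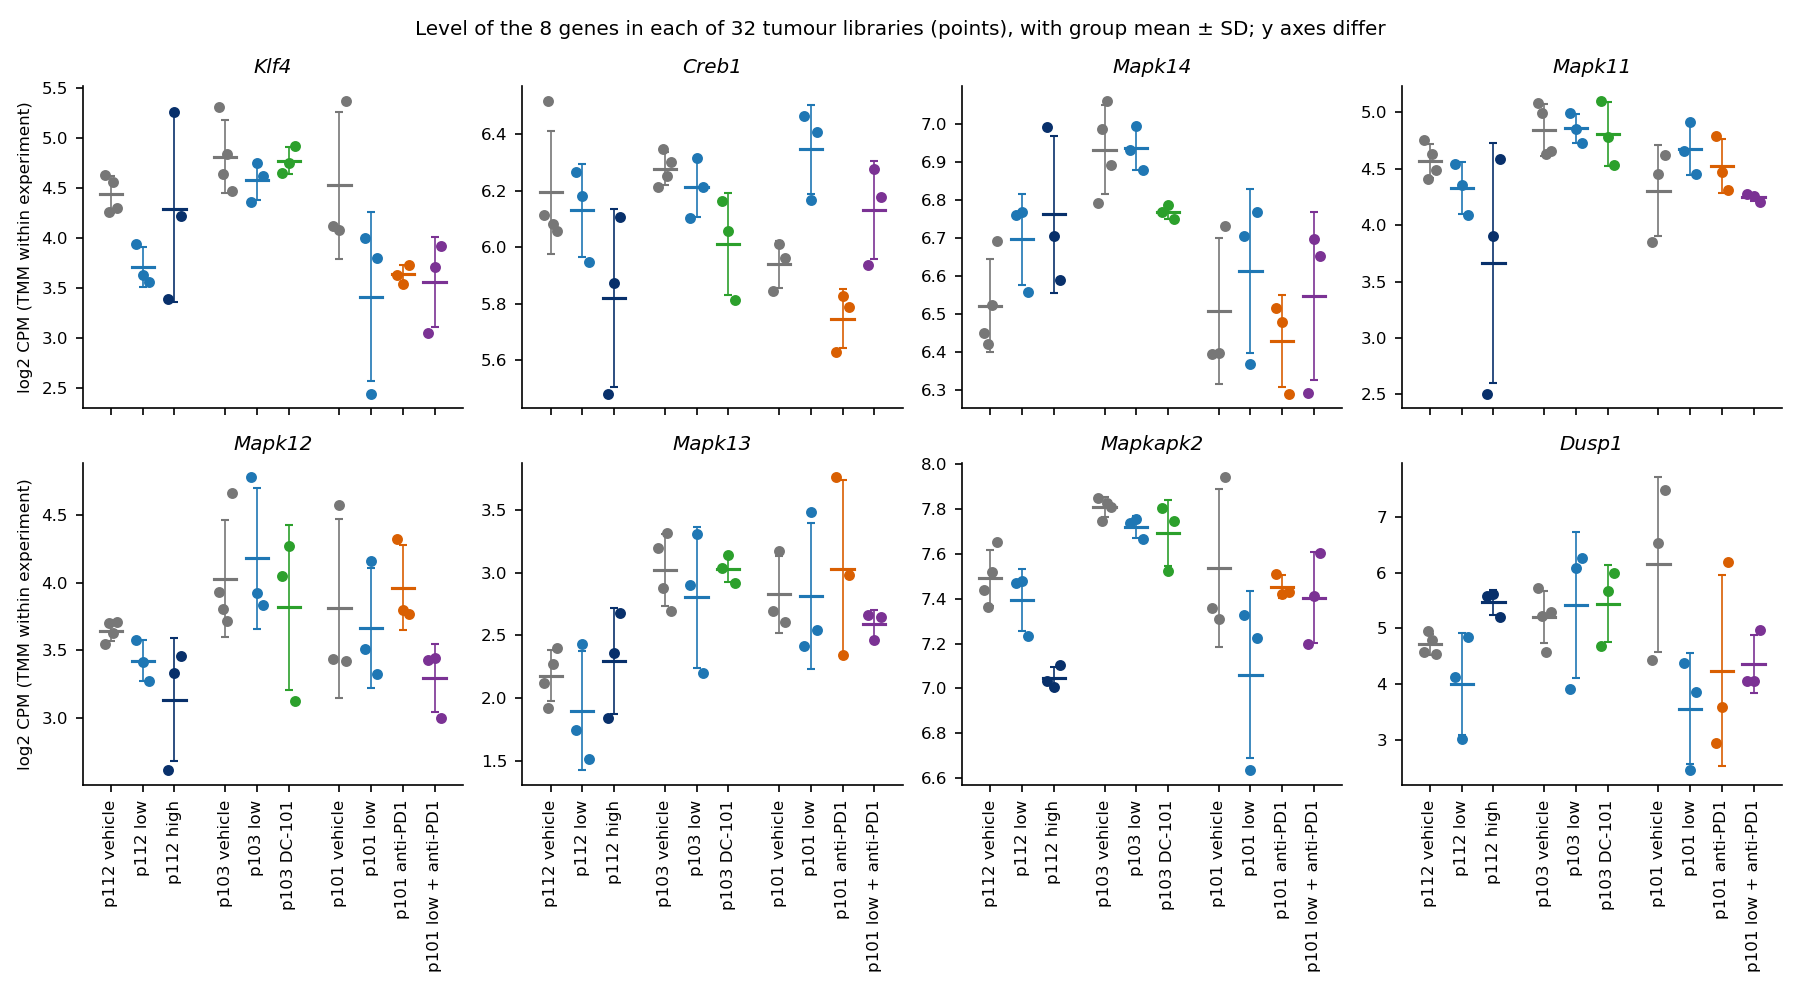
Log2 CPM of each gene (y axis, its own scale per panel) in the 10 groups (x axis), with points for the 32 libraries, bars for group means and whiskers for the SD. Klf4 is below the vehicle mean in every low dose group, p101 Dusp1 in vehicle spans 4.43 to 7.49, and the 3 high dose Mapkapk2 values lie between 7.01 and 7.10.

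Within single experiments edgeR called no member at the low dose. In p112, where 0% of 16525 genes passed the adjusted threshold, 0 members passed with edgeR, DESeq2 (0.514% of genes) or voom (0%) and 0 at an unadjusted p under 0.05, which 4.94% of all genes reached. In 1 member, Klf4, low dose and vehicle did not overlap, as in 13.9% of all genes. In p103, where 0.0248% of genes passed, no member was past either threshold (17.1% of genes at the unadjusted one). DESeq2 (6.8% of genes) and voom (0.0248%) called 0 members, and 0 members had separate groups beside 16.4% of all genes. In p101 no gene passed (0% of 16615). There 3 members had an unadjusted p under 0.05, namely Dusp1 (adjusted p 0.283), Klf4 (0.377) and Creb1 (0.41), beside 11.8% of all genes, and the same 3 had separate groups, beside 14% of all genes. DESeq2 called Dusp1 alone in p101 (log2 change −2.85, adjusted p 0.0333) beside 2.56% of all genes, and voom called 0 members and 0% of genes.

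Low dose replicate 2 of p101 had the lowest Klf4, Mapkapk2 and Dusp1 of all 32 libraries. Without it the Klf4 change in p101 was −0.76, and without vehicle replicate 3, the highest of that group in Klf4, Mapkapk2 and Dusp1, it was −0.54. The endothelial marker sum was also lowest in the low dose group of p101 (120 CPM). With the endothelial covariate the p101 Klf4 change was −0.57 (adjusted p 0.82) and the Dusp1 change −2.04 (adjusted p 0.788). Other marker lists had lower medians than the endothelial one (−1.04) in this comparison, with −2.63 over 9 neutrophil, −2.77 over 6 erythrocyte, −1.77 over 12 hepatocyte and −1.25 over 8 epithelial and progenitor markers. No marker of these lists passed after adjustment. A fit with the hepatocyte marker mean as a covariate was also run. Over 10 alternative fits, which include it, the Klf4 change ran from −1.62 to −0.57 and the Dusp1 change from −2.95 to −2.04. The part of neutrophils, erythrocytes and epithelial cells in these values was not tested.

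High dose regorafenib, 20 mg/kg/day, was compared with vehicle and with the low dose within p112. Mapkapk2 was the only member called against vehicle, with 15.6% of all 16525 genes called. High dose tumors had 7.03, 7.01 and 7.10 log2 CPM against 7.36 to 7.65 in vehicle, a spread of 0.05 (SD) in the treated group. The log2 change was −0.45 (SE 0.12, 95% confidence interval −0.72 to −0.18), 0.732 of vehicle, with an adjusted p of 0.0436 (edgeR). The call sat close to the threshold. It was lost on leaving out 8 of the 10 libraries in turn, each vehicle library, low dose replicates 1 and 2 and high dose replicates 1 and 2, with changes of −0.49 to −0.39 and adjusted p values up to 0.102, in fits that called 0.091% to 5.65% of all genes. DESeq2 and voom called the same gene and no other member, and they called 31.9% and 8.16% of all genes.

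At an unadjusted p under 0.05 Mapkapk2 was again the only member, beside 40.1% of all genes, and 3 members (Mapkapk2, Mapk12 and Dusp1) had separate groups beside 28.3% of all genes. Dusp1 was 5.58, 5.62 and 5.21 at high dose and 4.54 to 4.95 in vehicle, a log2 change of 0.76 (95% confidence interval −0.02 to 1.53, adjusted p 0.134). Mapk12 was 2.62, 3.33 and 3.46 against 3.55 to 3.71 (−0.47, adjusted p 0.144, and −0.23 without replicate 1). Klf4 spread from 3.39 in replicate 1 to 5.26 in replicate 2, on both sides of the vehicle range, with a change of 0.05 (−0.77 to 0.87). Over 10 alternative fits this change ran from −0.10 to 1.57, and none of them called it. Creb1 was at 5.48, 5.87 and 6.11 (−0.36, adjusted p 0.163). Without high dose replicate 1 the Creb1 change was −0.19, without high dose replicate 3 it was −0.56, and without vehicle replicate 2 it was −0.23. Replicate 1 held the lowest Klf4, Creb1, Mapk11, Mapk12 and Mapk13 of the group, with Mapk11 at 2.51 against 3.90 and 4.59. Mapk11 changed by −0.68 in the main fit (edgeR adjusted p 0.221), and by −1.24 to −0.26 with single libraries left out. Without high dose replicate 3 it changed by −1.24 and was called (edgeR adjusted p 0.0294), in a fit that called 41.1% of all genes.

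Markers of several cell types moved with the high dose. Of 12 macrophage markers 9 fell and 0 rose, with a median log2 change of −1.27, and their summed level was 976 to 2351 CPM against 2841 to 4711 CPM in vehicle. Adgre1 fell by 1.21. The 12 hepatocyte markers had a median change of 3.97, with 1 past the threshold, and sums of 3608 to 93700 CPM against 1280 to 7351 CPM. No marker of either list was at 0. Of 10 T cell markers 5 rose and 0 fell (median 1.65), with sums of 27.0 to 69.4 CPM against 12.4 to 24 CPM in vehicle. Of 8 epithelial and progenitor markers 3 rose and 0 fell (median 1.89), with sums of 214 to 978 CPM against 81.0 to 216 CPM. The endothelial markers Emcn (−1.86) and Cldn5 (−1.86) fell, with a list median of −0.41, and the globin gene Hbb-bs fell by 2.25, with a median of −2.08 over 6 erythrocyte markers. With the macrophage marker mean as a covariate the Mapkapk2 change was −0.37 (adjusted p 0.656), and with the hepatocyte mean it was −0.39 (adjusted p 0.261). With the endothelial mean it was −0.47 (edgeR adjusted p 0.0391). The part of the other cell types in the Mapkapk2 change was not tested.

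High dose against low dose called 0 members (edgeR, 4.22% of all genes). At an unadjusted p under 0.05 there were 2, Dusp1 and Mapkapk2, beside 29.3% of all genes. Dusp1 was higher at the high dose, at 5.21 to 5.62 against 3.03 to 4.84, with a log2 change of 1.31 (SE 0.38, 95% confidence interval 0.46 to 2.16, adjusted p 0.0818). DESeq2 called it (1.33, adjusted p 0.0125), as did voom (1.49, adjusted p 0.0492), beside 18.5% and 4.73% of all genes. Mapkapk2 was lower at the high dose by 0.35 (95% confidence interval −0.63 to −0.07, adjusted p 0.119), and DESeq2 called it with an adjusted p of 0.0498. The Klf4 difference between the doses was 0.78 (−0.11 to 1.67). Of 12 macrophage markers 9 were lower at the high dose (median −2.08), and of 8 epithelial and progenitor markers 2 were higher (median 1.83). All 12 hepatocyte markers were above 0 (median 2.38) and 0 passed. Fits with the macrophage or hepatocyte marker mean as a covariate were also run for this comparison, and they called no member. The part of epithelial and progenitor cells in the Dusp1 and Mapkapk2 differences was not tested.

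DC-101 addressed whether VEGFR2 blockade alone goes with changes of the axis. No member was called against vehicle (edgeR, 0% of 16138 genes), nor by DESeq2 (2.31%) or voom (0%). Creb1 was the only member at an unadjusted p under 0.05, beside 13.2% of all genes. It was 6.16, 6.05 and 5.81 after DC-101 and 6.21 to 6.35 in vehicle, a log2 change of −0.26 (95% confidence interval −0.49 to −0.03, adjusted p 0.347). It was −0.16 without DC-101 replicate 3. Creb1 and Mapk14 had separate groups, as did 13.4% of all genes, and Mapk14 had a change of −0.17 (−0.35 to 0.02). Klf4 was 4.65, 4.75 and 4.92, within the vehicle range, with a change of −0.07 (−0.52 to 0.38). Dusp1 was 4.68, 5.67 and 6.0 (0.29, −0.92 to 1.49). Endothelial marker sums after DC-101 were 244 to 418 CPM, below the 430 to 753 CPM of vehicle. All 12 hepatocyte markers were above 0 (median 3.64) and all 6 erythrocyte markers below 0 (median −1.75), and no marker passed after adjustment.

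Low dose regorafenib and DC-101 did not differ in any member past the adjusted threshold (edgeR, 0% of genes, DESeq2, 1.26%, or voom, 0%), nor at the unadjusted one, which 8.45% of all genes passed. The Klf4 difference, low dose minus DC-101, was −0.19 (−0.67 to 0.29), with 3 of 3 low dose tumors below the DC-101 mean. Mapk14 differed by 0.17 (−0.03 to 0.37), Creb1 by 0.20 (−0.05 to 0.44) and Mapk12 by 0.35 (−0.50 to 1.21). Each of these was higher under regorafenib in 3 of 3 tumors relative to the DC-101 mean.

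Anti-PD1 was given alone and with regorafenib in p101, against the same 3 vehicle tumors as the low dose. With anti-PD1 alone Klf4 was 3.63, 3.54 and 3.73, below all vehicle tumors, a log2 change of −1.03 (−2.02 to −0.04, adjusted p 0.348 with edgeR). It was the only member at the unadjusted threshold, beside 13.7% of all genes. No member passed after adjustment (edgeR, 0% of 16615 genes), and DESeq2 (3.7%) and voom (0%) called 0. Klf4 and Creb1 had separate groups, beside 16.6% of all genes, and Creb1 was at 5.63, 5.83 and 5.79 (−0.19). Dusp1 was 2.95, 3.59 and 6.18, a change of −1.67 (−3.63 to 0.29). It was −3.31 without anti-PD1 replicate 3 and −0.89 without vehicle replicate 3.

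In the combination, Klf4 was 3.05, 3.71 and 3.92, again below all vehicle tumors, with a change of −1.06 (−2.05 to −0.07, adjusted p 0.578 with edgeR). Dusp1 was 4.06, 4.05 and 4.96 with a change of −2.19 (−4.18 to −0.20, adjusted p 0.572), and the groups overlapped. These were the 2 members at the unadjusted threshold, beside 8.2% of all genes. None passed after adjustment with edgeR (0% of genes), DESeq2 (0.903%) or voom (0%), and Klf4 alone had separate groups, beside 17.7% of all genes. All 3 treated groups share the vehicle tumors, of which replicate 3 was highest in Klf4 and Dusp1. Without that library the Klf4 changes were closer to 0, at −0.54 for the low dose, −0.47 for anti-PD1 and −0.50 for the combination, and the Dusp1 change with the combination was −1.41. Endothelial marker sums were 251 to 296 CPM with anti-PD1 and 266 to 340 CPM with the combination, against 306 to 370 CPM in vehicle. With anti-PD1 all 12 hepatocyte markers (median −2.41), all 9 neutrophil markers (−1.80) and all 6 erythrocyte markers (−2.54) were below 0, as were 9 of 10 T cell markers (−0.70), against a median of −0.66 over the endothelial list. With the combination the medians were 0.07, −0.78, −2.40, 1.18 and −0.65 in the same order, with all 10 T cell markers above 0. None of these markers passed after adjustment. Fits with the endothelial or hepatocyte marker mean as a covariate were among 10 alternative fits. Over these the Klf4 change ran from −1.68 to −0.68 with anti-PD1 and from −1.28 to −0.75 with the combination. The Dusp1 change ran from −1.96 to −1.11 and from −2.26 to −1.75. The part of neutrophils, erythrocytes and T cells in these values was not tested.

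The combination against anti-PD1 alone called 0 members with edgeR (0% of all genes), DESeq2 (1.26%) or voom (0%), and 0 at an unadjusted p under 0.05 (8.68% of all genes). Relative to the anti-PD1 mean, Creb1 was higher in 3 of 3 combination tumors, by 0.39 (−0.01 to 0.79). Mapk11 (−0.29, −0.84 to 0.25), Mapk12 (−0.68, −1.49 to 0.12) and Mapk13 (−0.56, −1.45 to 0.33) were lower in 3 of 3. Klf4 did not separate the groups (−0.03, −1.02 to 0.95). The regorafenib change with anti-PD1 minus that without it was 1.07 for Klf4 (−0.32 to 2.46) and 2.33 for Dusp1 (−0.41 to 5.07). For this difference too no member passed with edgeR (0% of all genes), DESeq2 (3.21%) or voom (0%) and 0 at the unadjusted threshold (10.8% of all genes).

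**Figure D3:**
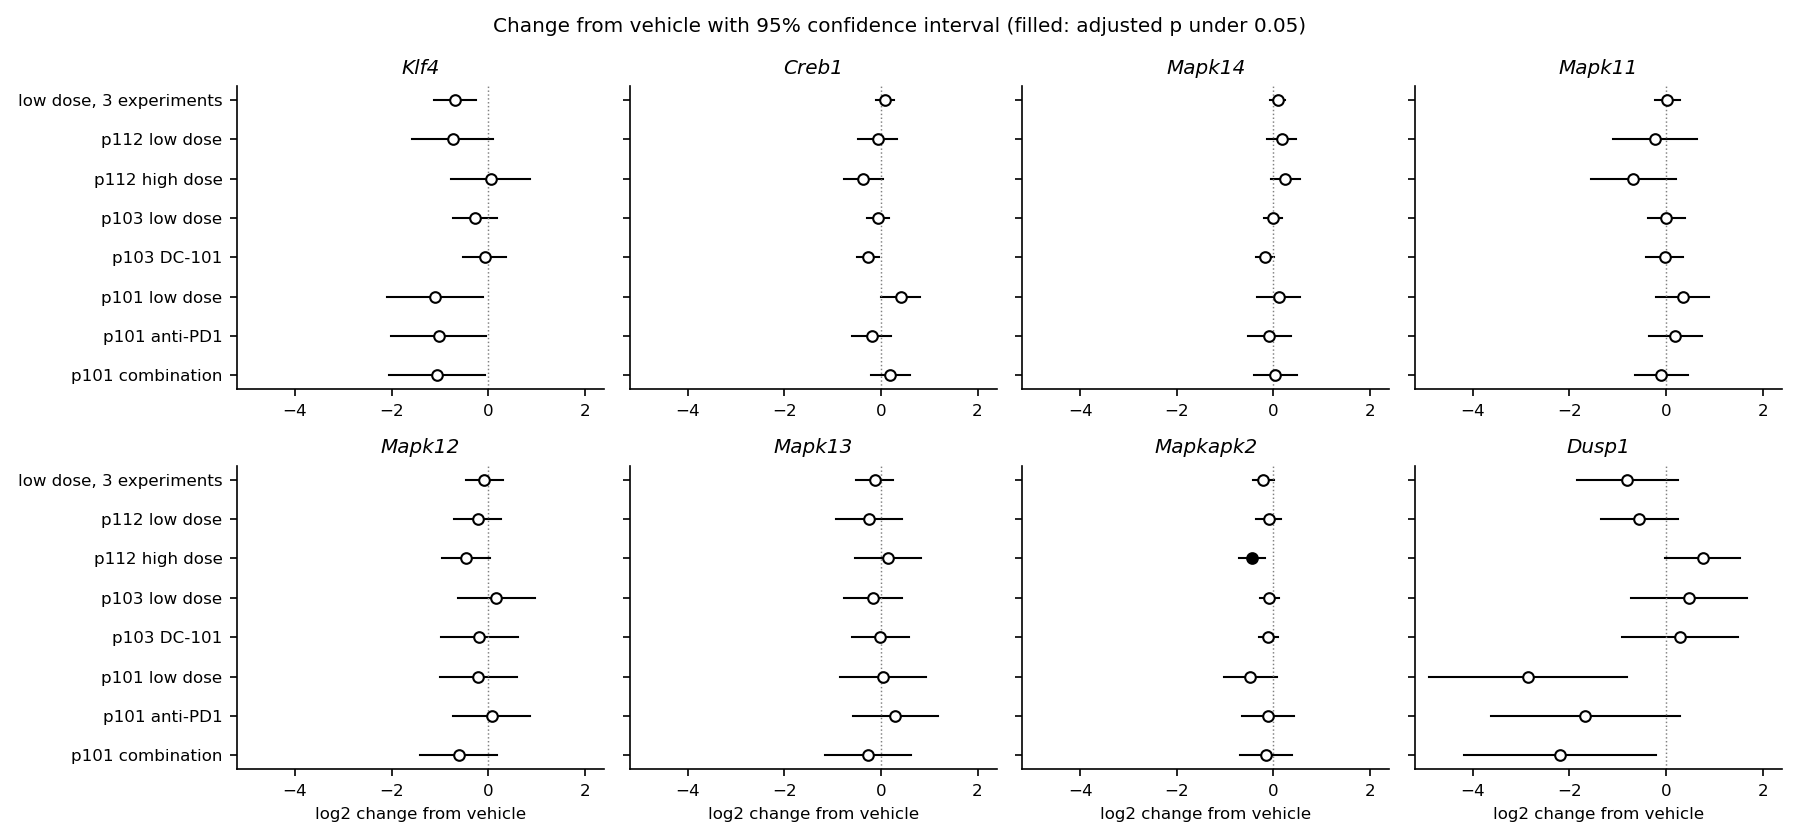
Log2 change from the vehicle of the same experiment (x axis) with 95% confidence intervals for each gene in 8 comparisons (rows), filled where the adjusted p was under 0.05. The only filled point is Mapkapk2 at the high dose (−0.45), and the widest intervals are those of Dusp1 in p101.

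Genes around the members were read from lists written from general knowledge. In the fit over 3 experiments none of the 13 upstream activators of p38 passed (median log2 change −0.09). Gadd45b, a stress-induced activator of the p38 cascade, had the smallest p (−0.56, SE 0.15, adjusted p 0.0585). No p38 substrate kinase passed (0 of 6, median 0.05), and Mknk1, a kinase of the translation factor eIF4E, was first by p (0.20, adjusted p 0.412). Among 7 further p38 phosphatases none passed, and Ptpn7, a leukocyte phosphatase, had 0.82 (adjusted p 0.0869). None of the 7 MK2 effectors of mRNA stability passed (median 0.003), with Zfp36l2 at −0.37 (adjusted p 0.339). The median over all genes in this fit was 0.03.

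CREB relatives and coactivators had no call among 10 genes (median −0.05), with Creb5 at 0.63 (adjusted p 0.187). Of 17 CREB target genes 16 were tested. None passed. In this fit 13 of 16 had a change below 0, beside 45.5% of all genes, and the median was −0.22. Within single experiments 12 of 16 were below 0 in p112 (median −0.36), 8 of 16 in p103 (0.06) and 13 of 16 in p101 (−0.48). The smallest p belonged to Pde4d, a phosphodiesterase that breaks down cAMP (−0.48, SE 0.12, adjusted p 0.0551). The KLF family had 13 of 16 relatives tested beside Klf4. None passed, 10 of 13 were below 0 and the median was −0.28. By experiment 8 of 13 were below 0 in p112, 9 in p103 and 12 in p101. Klf9, a glucocorticoid-responsive member, was first by p at −1.01 (SE 0.27, adjusted p 0.0618). Of 12 M2 and Klf4 readouts, 10 were tested and 1 passed. It was Ccl7, a monocyte chemokine, which rose by 2.13 (SE 0.29, adjusted p 0.000416).

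At the high dose the same lists held more calls, as did all genes, of which 15.6% were called. The p38 activators had 1 of 13, Map3k20 (the ribotoxic stress kinase ZAK), lower by 0.91. No substrate kinase passed, and Mknk2 was at 0.45 (adjusted p 0.143). Dusp8 rose by 0.84 and Ptpn7 fell by 1.28 among the phosphatases. Of the MK2 effectors, Zfp36l2 fell by 0.72 and Hnrnpa0 by 0.66, and Hspb1, a small heat shock protein that MK2 phosphorylates, rose by 2.13. CREB relatives had no call, with the coactivator gene Crebbp at 0.38 (adjusted p 0.0728).

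CREB targets split at the high dose, with 3 higher and 3 lower of 16, beside 15.6% of all genes called in either direction. Ppargc1a, a regulator of mitochondrial and gluconeogenic genes, rose by 2.78 and the clock gene Per1 by 0.96. Rgs2, a regulator of G protein signaling, fell by 1.55 and the immediate early gene Egr1 by 1.30. In the KLF family Klf15 (6.02) and Klf12 (2.95) rose, and Klf5 (−1.41) and Klf6 (−0.78) fell. Of the 10 M2 and Klf4 readouts tested, 3 passed, all lower. Mrc1, the CD206 gene of M2 macrophages, fell by 1.42, Ccl7 by 1.51 and Cd44 by 0.85. Another 3 were above 0 without passing (edgeR). These were Arg1 (3.11, adjusted p 0.0614), Clec10a (2.83, adjusted p 0.0667) and Pparg (2.52, adjusted p 0.0535). The macrophage markers fell in the same tumors, as given beside Mapkapk2, and the part of cell content in these lists was not tested.

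**Figure D4:**
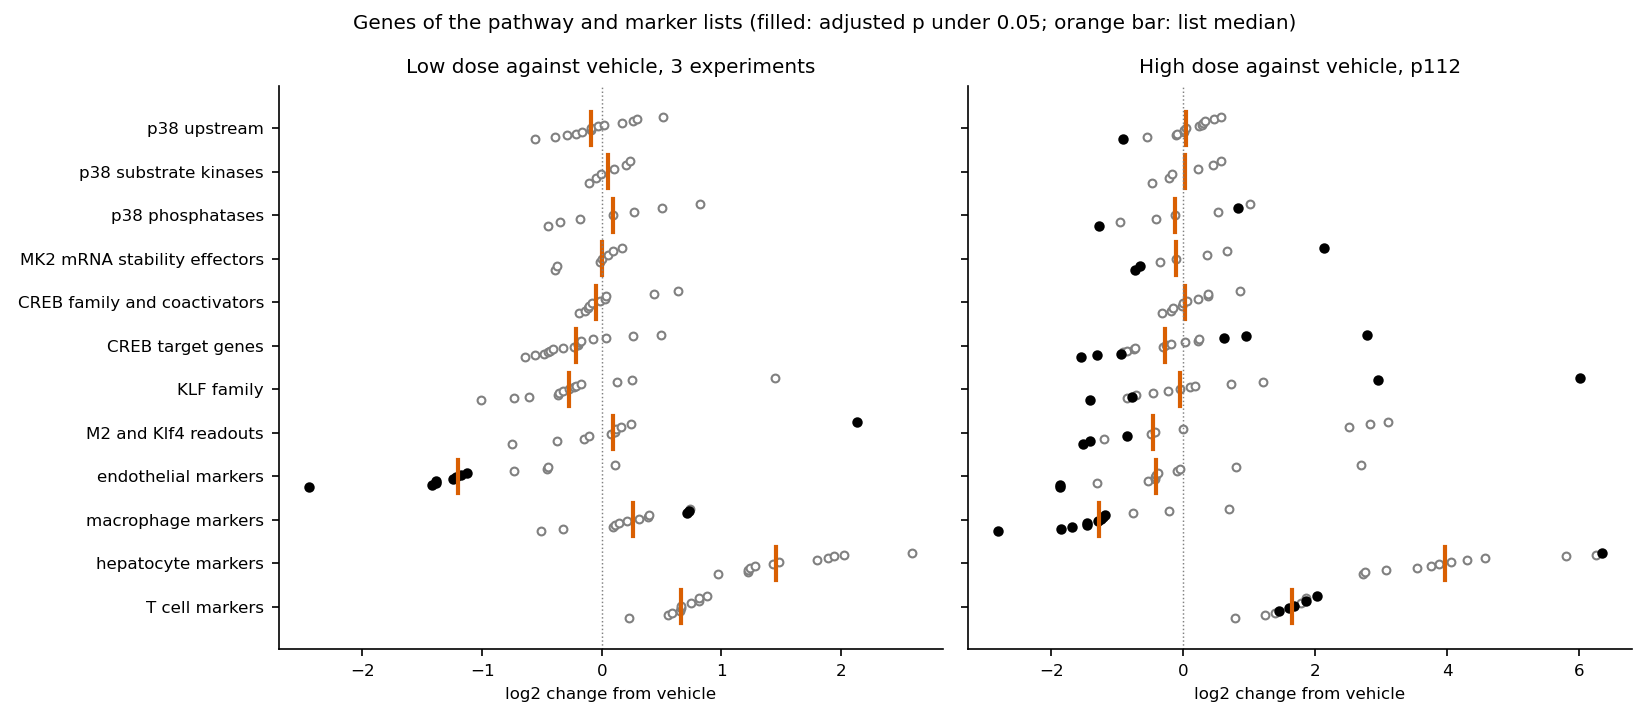
Log2 change from vehicle (x axis) of each tested gene in 8 pathway lists and 4 marker lists (rows), for the low dose over 3 experiments (left) and the high dose in p112 (right), with filled points for adjusted p under 0.05 and orange bars for list medians. At low dose the filled points are Ccl7, 8 endothelial markers and 2 macrophage markers. At high dose 9 of 12 macrophage markers are filled, all below 0.

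The genes whose pattern over the 32 libraries was most like that of Klf4 were found by Pearson's r of log2 CPM centered on each experiment, among 12852 genes. They were Fbln2 (r = 0.858), Adamtsl5 (0.842), Tgfbr3 (0.818), Slc44a2 (0.816) and Ccdc80 (0.814). For Dusp1 they were Mafk (0.899), Mxi1 (0.875), Zbtb10 (0.863), Fst (0.856) and Ppp1r15a (0.854). All points share libraries and treatments, so these r values are descriptions. When values were centered on each group instead, r was 0.782 to 0.855 for the Klf4 set and 0.819 to 0.884 for the Dusp1 set. Spearman's rho was 0.54 to 0.717 for the Klf4 set and 0.789 to 0.875 for the Dusp1 set. Among the members themselves the highest r was between Klf4 and Dusp1 (0.626), followed by Klf4 and Mapkapk2 (0.55). Klf4 and Creb1 had 0.0382, and Klf4 and Mapk14 had 0.0883.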

How the data were processed

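The deposited values are raw read counts per gene. The authors trimmed reads with cutadapt 2.4, aligned them to GRCm38 with STAR 2.7.2a and counted genes of a Gencode annotation, as given in the submitters' processing notes and the study's methods. The strand setting of the counts is not given in the sources used here, so reads of overlapping antisense genes may be included. Symbols and coordinates came from Gencode M21 by gene ID (54409 of 54446 matched, 99.93%), and promoters came from RefSeq tables of GRCm38.p6. The Dusp1 span there includes a longer transcript.

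Low genes were removed with filterByExpr at a minimum count of 10 and a minimum total of 15. Counts were then scaled by TMM within each experiment and tested with the robust quasi-likelihood F-test of edgeR 4.0.16 (R 4.3.3), all groups of an experiment together. SE is the size of the log2 change divided by the square root of F. Log2 CPM used a prior count of 2. Alternatives used DESeq2 1.42.0, voom of limma 3.58.1, other scalings, no filter, a block on replicate numbers, marker covariates, fewer groups and left-out libraries or experiments. The code was tested on simulated data. Replicate libraries of a group differed by more than counting noise. Each library is taken as a separate tumor, which the labels do not state in words, so p-values measure the spread between libraries. Members, lists (169 entries in 8 pathway and 8 marker lists) and comparisons were chosen with earlier results of these data known. Named list genes are those past the threshold (the 4 with the largest changes where more than 5 passed) or, with none, the gene with the smallest p. Mafk and the other similar genes were the top 5 by r among genes averaging at least 1 log2 CPM.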

Additional observations from a re-analysis of the deposited data

Results flagged for a closer look

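Of 16 groups of 4 vehicle libraries (8 genes in p112 and p103), 1 held a library far from the others. Creb1 in p112 vehicle replicate 2 was at 6.518 log2 CPM while the other 3 libraries lay between 6.058 and 6.114, so the gap was 0.878 of the group's range, past the critical value of Dixon's test for 4 samples. By chance about 1 in 20 such groups is picked out.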

How the results depend on the processing

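Calls of members depended on the tool near the threshold. Against 0 with edgeR, DESeq2 called 1 member over 3 experiments, 2 for high against low dose and 1 for the low dose in p101, beside 5.73%, 18.5% and 2.56% of all genes, and voom called 1 for high against low dose, beside 4.73%. The 1 call at high dose against vehicle (Mapkapk2) became 0 with total count scaling, with no filter, with the hepatocyte or macrophage covariate, with only the compared groups, and with the replicate block. Calls over all genes dropped in the same settings, from 15.6% to 1.71%, 1.34%, 0.781%, 0.0121%, 0.0249% and 0.00605% in that order, and the Mapkapk2 change stayed between −0.603 and −0.373. Replicate numbers did not pair the tumors: among same-numbered pairs the correlation of deviations was over 0.1 in 2 of 9 in p112, 4 of 9 in p103 and 6 of 18 in p101. The block changed no other count of members called. Leaving out libraries gave 0 to 2 members for high dose against vehicle and 0 to 1 against the low dose. Without p112 high dose replicate 3 there were 2 (Mapk11 and Mapkapk2), beside 41.1% of all genes.

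Total count scaling moved the median of all genes at high dose against vehicle from 0.022 to −0.134. Of 64 log2 changes of single members, 31 took the opposite sign in some setting, none of them past the threshold when they did. Across experiments these were, without p101, Creb1 (−0.067) and Mapk11 (−0.111). With the endothelial covariate they were Mapk11 over 3 experiments (−0.354), Mapk14 (−0.083) and Mapk11 (−0.367) at p103 low dose, Mapk11 (−0.009) and Mapk13 (−0.763) at p101 low dose, Mapk11 (−0.012), Mapk12 (−0.205), Mapk13 (−0.156) and Mapkapk2 (0.088) with anti-PD1, and Mapkapk2 (0.023) with the combination. With the replicate block they were Mapk12 over 3 experiments (0.002), Klf4 at high dose (−0.103), Mapk14 (−0.012) and Mapk11 (−0.045) at p103 low dose and Mapk12 with DC-101 (0.016). With the hepatocyte covariate they were Creb1 (0.015) and Mapk11 (0.060) at p112 low dose, Creb1 (0.033) and Mapk14 (−0.052) at p103 low dose, Mapk11 (0.154), Mapk12 (0.101) and Mapk13 (0.008) with DC-101, and Mapk14 at p101 low dose (−0.128) and with the combination (−0.051). The macrophage covariate did so for Mapk11 at high dose (0.162), Mapk14 (−0.007) and Mapk11 (−0.010) at p103 low dose and Mapk13 at p101 low dose (−0.021). Total count scaling did so for Klf4 at high dose (−0.028) and Mapk14 (−0.009) and Mapk11 (−0.001) at p103 low dose, and voom for Klf4 at high dose (−0.077) and Mapk13 with DC-101 (0.021) and at p101 low dose (−0.032). Mapk13 with DC-101 also turned with no filter (0.021), RLE scaling (0.007), DESeq2 (0.008) and only the compared groups (0.015), and Mapk11 with no filter (0.002).

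Leaving out 1 library turned 52 of the 64 member changes or moved them by over 1.5 times, and turned the sign of 25 of them. Signs turned with these ranges. Over 3 experiments Mapk11 ran from −0.052 to 0.078 and Mapk12 from −0.211 to 0.056. In p112, Creb1 at low dose ran from −0.145 to 0.051, and at high dose Klf4 from −0.569 to 0.388 and Mapk13 from −0.103 to 0.365. In p103 at low dose Mapk14 ran from −0.045 to 0.045, Mapk11 from −0.059 to 0.092, Mapk12 from −0.197 to 0.425 and Mapk13 from −0.438 to 0.078. With DC-101 Klf4 ran from −0.182 to 0.122, Mapk11 from −0.159 to 0.103, Mapk12 from −0.396 to 0.086, Mapk13 from −0.108 to 0.098, Mapkapk2 from −0.135 to 0.0 and Dusp1 from −0.006 to 0.616. In p101 at low dose Mapk12 ran from −0.499 to 0.285 and Mapk13 from −0.37 to 0.246. With anti-PD1 Mapk14 ran from −0.162 to 0.037, Mapk11 from −0.021 to 0.361, Mapk12 from −0.148 to 0.563, Mapk13 from −0.146 to 0.585 and Mapkapk2 from −0.225 to 0.12, and with the combination Mapk14 from −0.038 to 0.164, Mapk11 from −0.315 to 0.069 and Mapkapk2 from −0.268 to 0.081. The cause of these turns was not tested. Depth was lowest for Mapk13, with as few as 62 reads in a library.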
